A study of Macaca mulatta with 102 samples.

Results

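Lactoferrin (LTF) and lysozyme (LYZ), the antimicrobial proteins of milk, were followed in the milk and mammary gland of rhesus macaques. They were chosen by gene identity and are 2 of the 42701 transcripts with a level in the deposited file. LTF is transcript ENSMMUT00000020008 (chromosome 2, 90062066 to 90090651 of the rheMac2 assembly) and LYZ is ENSMMUT00000012553 (chromosome 11, 66342374 to 66347986), and 0 other transcripts in the file overlap either locus. The gene names of these identifiers came from an earlier matching of the same data to the study's lists of abundant transcripts, since no annotation used here paired them.

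Lactoferrin is an iron-binding glycoprotein of the transferrin family that withholds iron from bacteria and damages their surfaces. It is secreted by mammary epithelium and is also stored in the granules of neutrophils. Lysozyme is an enzyme that cleaves the peptidoglycan of bacterial cell walls and is made by mammary epithelium and by phagocytes, and α-lactalbumin (LALBA), the lactose synthase subunit, is its relative in sequence and fold. Both are prominent in the milk of primates.

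The study asked whether RNA recovered from milk represents the lactating mammary gland, in mothers of prime age that had borne young before and were nursing sons, all sedated and given oxytocin for milking. There were 34 samples from 6 animals, M1 to M6, each sequenced in 3 technical runs, which were averaged. Mammary core biopsies (Bx) were taken from M3, M4 and M6 on day 30 post-partum and from M1, M2 and M5 on day 90, directly after milking, so biopsy day and animal cannot be told apart. Milk was centrifuged to give washed milk cells (Cells) on both days from all 6 animals, and milk fat (Fat) on day 30 from M1, M2, M3 and M6 and on day 90 from all 6 animals. A further day 90 preparation labelled FatS10 came from M1, M2, M4, M5 and M6, and 1 day 90 sample of M3 was labelled Skim10m. The study describes cell-free milk from day 90, but the labels do not say that these are it, so FatS10 was treated under its own label as the fourth sample type and Skim10m was left out of the tests unless stated. An animal developed mastitis after its biopsy, and the labels do not say which. Levels are given in FPKM, a level relative to transcript length and library size, which allow LTF and LYZ to be compared within a sample. The paper reports that macaque milk fat gave RNA of lower integrity than milk cells or mammary tissue. It also states that day 30 milk RNA of some macaques was of too low quality to sequence (integrity number under 6). The paper does not name these macaques, and M4 and M5 are the animals without day 30 milk fat. Whether this selection affects the comparisons by day was not tested. Integrity values per sample were not used here. Whether RNA integrity affects the differences between sample types was not tested. FPKM hold no read counts, so no interval for counting error was computed. Relative depth, estimated from the spacing of low FPKM, ran from 0.745 to 1.38 of the median sample. A check of this estimate on simulated samples returned no error value, so its accuracy is not known. The technical runs of a sample differed by a coefficient of variation of at most 1.96% for LTF and 1.34% for LYZ, so the spread described here lies between samples.

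LYZ was more abundant than LTF in each of the 34 samples. LYZ ranged from 11244 FPKM in the day 30 biopsy of M3 to 77081 FPKM in the day 30 milk cells of M3, and ranked between 4 and 10 among all transcripts of a sample. LTF ranged from 1211 FPKM in the day 30 milk cells of M2 to 13294 FPKM in the day 90 milk cells of M5, and ranked between 7 and 40. As a share of all FPKM of a sample, LYZ made up 1.90% ± 1.04 (SD, n = 6) among biopsies, 3.66% ± 1.38 (n = 12) among milk cells, 2.96% ± 0.905 (n = 10) among milk fat samples and 3.50% ± 1.06 (n = 5) among FatS10 samples. For LTF the shares were 0.820% ± 0.296, 0.423% ± 0.328, 0.329% ± 0.153 and 0.412% ± 0.216 (SD) in the same order. The order of the types was thus led by biopsies for LTF, while biopsies stood last for LYZ.

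**Figure D1:**
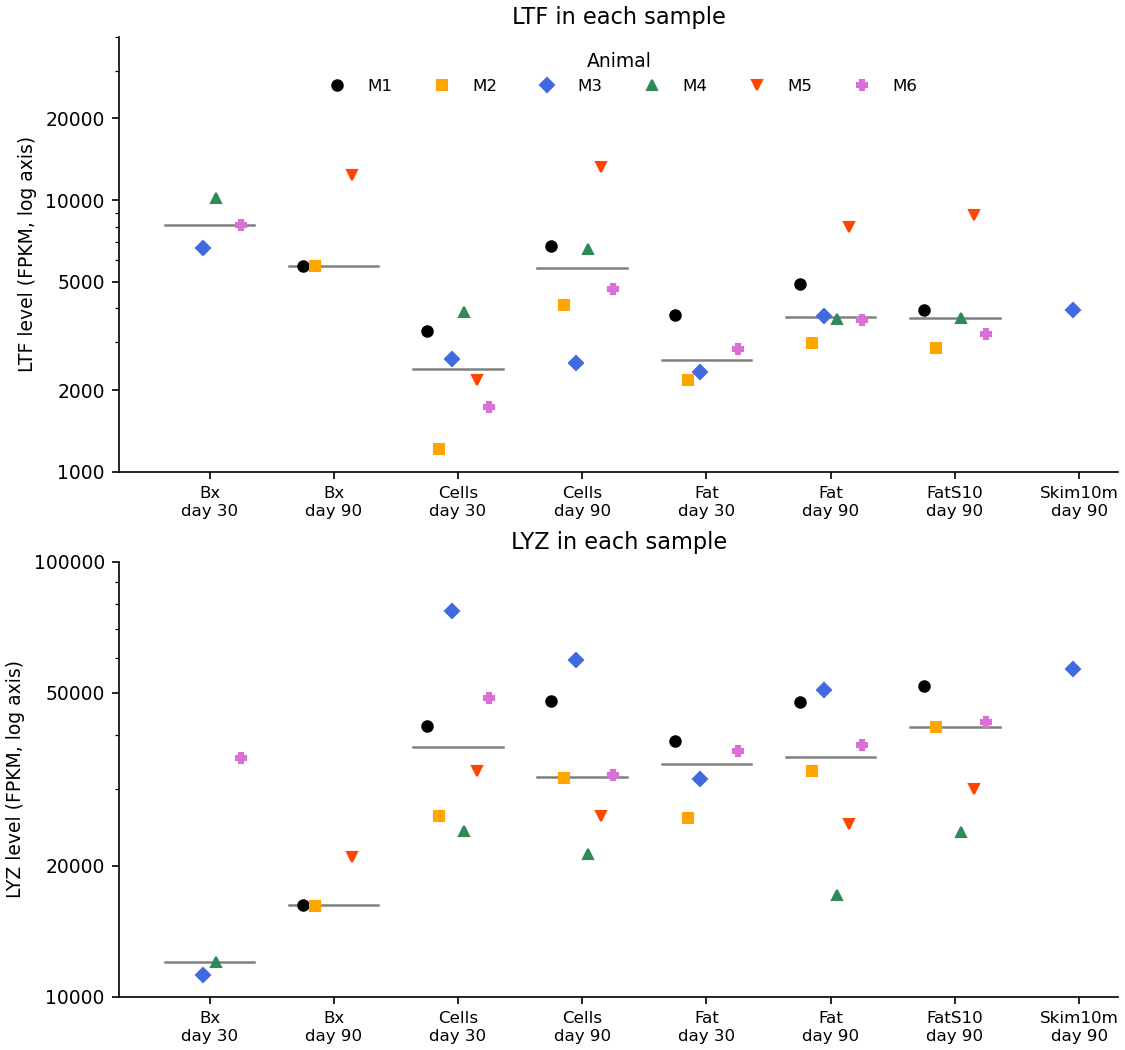
Levels of LTF (upper panel) and LYZ (lower panel) in FPKM on log axes, by sample type and day, with 1 point per sample, colour and shape for the animal, and a grey line at the median of groups of more than 1 sample. The LTF points of biopsies lie between 5719 and 12357 FPKM, and the milk points above 5719 FPKM are those of M5 on day 90 and the day 90 cells of M1 and M4. The LYZ points of 5 biopsies lie between 11244 and 20983 FPKM, with M6 alone at 35396 FPKM.

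In mammary biopsies the lowest LTF level was 5719 FPKM (M1, day 90), the median was 7409 FPKM and the highest was 12357 FPKM (M5, day 90). In milk fat the lowest, median and highest LTF levels were 2173, 3637 and 7989 FPKM over 10 samples. In milk cells they were 1211, 3585 and 13294 FPKM over 12 samples. Milk fat overlapped the biopsies only through the day 90 sample of M5, and milk cells through the day 90 samples of M1, M4 and M5. M5 also had the highest biopsy. FatS10 samples held 3949 FPKM of LTF in M1, 2849 in M2, 3697 in M4, 8851 in M5 and 3229 in M6, and M5 again stood above the other 4.

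LTF was lower in every milk type than in biopsies. For tests, FPKM were scaled between samples by median-of-ratios factors, 1 was added, both days of an animal were averaged on the log2 scale, and limma was fitted over all transcripts with a mean of at least 1 FPKM, with a transcript called at a Benjamini-Hochberg adjusted p under 0.05. The log2 fold change of LTF from biopsies to milk fat was -1.25 (standard error, SE, 0.27, limma adjusted p = 0.00188), a level 0.421 times that of biopsies, and each of the 6 animals had the lower LTF in milk fat. Calls were common in this comparison, with 55.0% of 13413 transcripts called in either direction. From biopsies to milk cells the change was -1.40 (SE 0.28, limma adjusted p = 0.00154), lower in 6 of 6 animals, where 43.0% of 14172 transcripts were called. The animal means of LTF in milk cells and in biopsies did not overlap after scaling. From biopsies to FatS10 the change was -1.24 (SE 0.30, limma adjusted p = 0.00692), lower in 5 of 5 animals, where 43.4% of 13781 transcripts were called; this call was lost without the filter on low FPKM (adjusted p = 0.0839) and with the FatS10 samples limited to the 3 animals biopsied on day 90, set against all 6 biopsies (adjusted p = 0.0552). These comparisons share the same 6 biopsies. In such bulk samples a lower share of the cells that make a transcript and less of it per cell cannot be told apart.

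LYZ levels were larger in milk than in most biopsies, but only the FatS10 comparison passed the threshold. Among biopsies LYZ measured 11244 FPKM in M3, 11992 in M4, 16136 in M2, 16274 in M1, 20983 in M5 and 35396 in M6, so that M6 alone reached the level of most milk samples. In milk fat the lowest, median and highest LYZ levels were 17093, 34863 and 50687 FPKM, and in milk cells they were 21251, 32645 and 77081 FPKM. FatS10 samples had 51728 FPKM in M1, 41675 in M2, 23885 in M4, 30089 in M5 and 42751 in M6. All these ranges overlapped that of biopsies only through the biopsy of M6 and, for milk fat, that of M5.

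The log2 fold change of LYZ from biopsies was 0.61 in milk fat (SE 0.28, 95% confidence interval -0.01 to 1.22, limma adjusted p = 0.0862), with milk fat the higher in 6 of 6 animals. In milk cells it was 0.80 (SE 0.37, interval -0.00 to 1.60, limma adjusted p = 0.0997), with milk cells the higher in 5 of 6 animals. FatS10 exceeded biopsies by 0.77 (SE 0.29, limma adjusted p = 0.0475), in 5 of 5 animals. This call rests on each of M1, M2, M3 and M5, since the adjusted p was 0.134, 0.116, 0.0893 and 0.0765 without them, M3 entering through its biopsy alone, and it was also lost with a pseudocount of 0.1 (0.0704) and with scaling to the 75th percentile (0.0882). In FPKM as deposited, without scaling, LYZ passed the threshold in milk fat (0.82, limma adjusted p = 0.0329) and in milk cells (1.07, adjusted p = 0.0142), and on that scale the median of all transcripts tested stood at 0.23 and 0.24 rather than near 0.

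**Figure D2:**
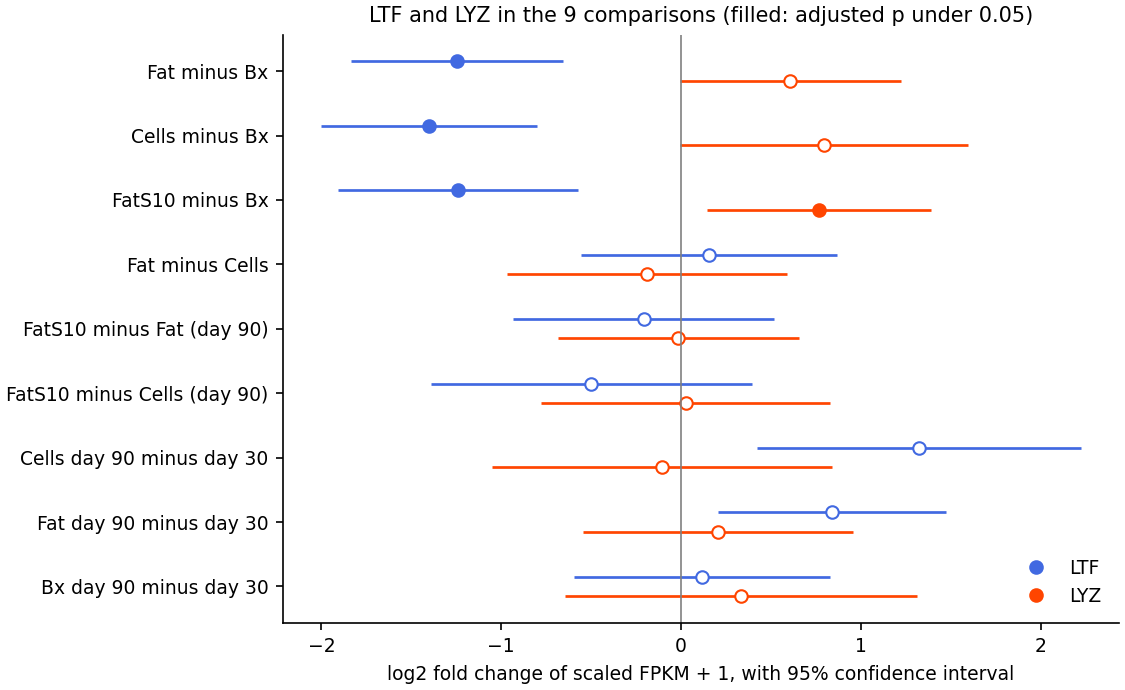
Log2 fold change of scaled FPKM + 1 for LTF (blue) and LYZ (orange) in the 9 comparisons, with the 95% confidence interval of the limma fit as a line and a filled point where the adjusted p was under 0.05. LTF is filled in the 3 comparisons of milk with biopsies at -1.25, -1.40 and -1.24, and LYZ only in that of FatS10 with biopsies at 0.77.

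The ratio of LYZ to LTF FPKM within a sample does not depend on how samples are scaled. Whether the ratio depends on RNA integrity was not tested. The ratio was 1.18 in the biopsy of M4, 1.68 in M3, 1.70 in M5, 2.81 in M2, 2.85 in M1 and 4.35 in M6. The lowest, median and highest ratios were 3.12, 10.8 and 13.6 in milk fat and 1.96, 10.2 and 29.7 in milk cells. Every milk sample had a larger ratio than the biopsy of its own animal. The ranges of the types overlapped biopsies through the day 90 milk cells of M4 and M5 and the day 90 milk fat and FatS10 of M5.

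With the days of an animal averaged on the log2 scale, the geometric mean ratio was 2.21 in biopsies and 8.004 in milk fat, a log2 difference of 1.86 ± 0.71 (SD over 6 animals), larger in milk fat in 6 of 6 animals (two-sided exact test by flipping signs, p = 0.03125, which is the least that 6 animals can give, and adjusted p = 0.0938 over the 9 comparisons of the ratio). In milk cells the geometric mean ratio was 10.2, a difference from biopsies of 2.20 ± 0.90 (SD over 6 animals), larger in 6 of 6 animals with the same exact p and adjusted p. Within animals the milk fat to biopsy fold ran from 1.84 in M5 to 8.08 in M3, and the milk cell to biopsy fold from 3.19 in M6 to 15.8 in M3. FatS10 had a geometric mean ratio of 8.90, against 2.34 in the biopsies of the same 5 animals, a difference of 1.93 ± 0.62 (SD over 5 animals) in 5 of 5 animals (exact p = 0.0625, the smallest that 5 animals allow, adjusted p = 0.0938). None of these 3 differences was under 0.05 after adjustment in the paired test. The unpaired exact permutation test gave adjusted p of 0.0195, 0.0195 and 0.0260. That test treats the milk and the biopsy of an animal as independent, although the same animals gave both. The paired outcome was fixed in advance, since the smallest p possible in the 9 comparisons leave every adjusted p above 0.05. The milk and the biopsy of an animal carried the same leading number in their sample titles, whose meaning the labels do not give, except for the biopsy of M5, and the direction was the same for each of the 3 numbers.

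**Figure D3:**
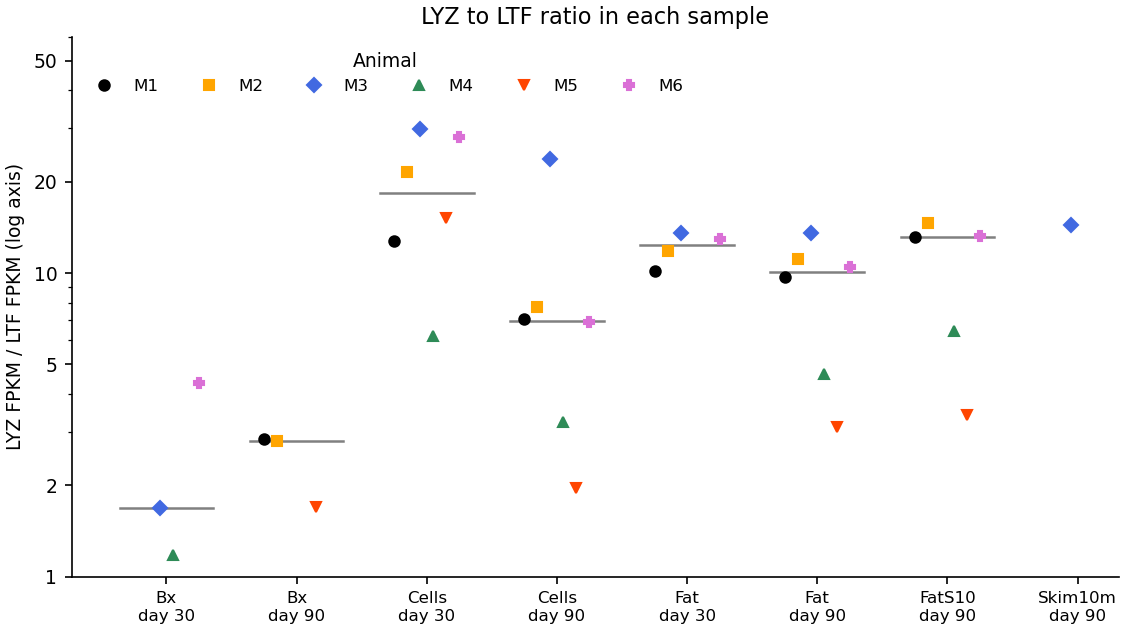
Ratio of LYZ to LTF FPKM in each of the 34 samples on a log axis, by sample type and day, with colour and shape for the animal and a grey line at the median of groups of more than 1 sample. Biopsies lie between 1.18 and 4.35, and day 30 milk cells reach 29.7, while in day 90 milk the points of M4 and M5 lie under those of the other animals.

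LALBA (ENSMMUT00000000415, chromosome 11, 45692914 to 45695265 of rheMac2) gave a reference from the same family as LYZ. LTF per LALBA was between 0.137 (M6) and 0.207 (M1) in the 6 biopsies. In the 12 milk cell samples it was between 0.0134 and 0.125, in the 10 milk fat samples between 0.0199 and 0.0698, and in the 5 FatS10 samples between 0.0274 and 0.0727, so the biopsies lay above all of these. LYZ per LALBA did not separate the types in this way, with biopsies between 0.219 and 0.599, milk cells between 0.230 and 0.499, milk fat between 0.158 and 0.461 and FatS10 between 0.247 and 0.518. LALBA itself was higher in milk fat than in biopsies by a log2 fold change of 1.05 (limma adjusted p = 0.00103), in milk cells by 0.88 (adjusted p = 0.0390) and in FatS10 by 0.78 (adjusted p = 0.0152). All 3 LALBA calls were lost without the filter on low FPKM (adjusted p of 0.805, 0.922 and 0.937). The call in milk cells was also lost with a pseudocount of 0.1 (0.106) and without M1 (0.118), M3 (0.0860, with a log2 fold change of 0.62), M4 (0.0678) or M6 (0.0759), and that in FatS10 without M1 (0.0730) or M2 (0.0598). The ratios to LALBA were not tested.

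In milk cells the LTF level was larger on day 90 than on day 30. This difference did not pass the threshold with all animals unpaired. It passed when animals were paired or M3 was left out, and not when any other animal was left out. LTF went from 3297 to 6783 FPKM in M1, from 1211 to 4122 in M2, from 2593 to 2510 in M3, from 3872 to 6589 in M4, from 2177 to 13294 in M5 and from 1731 to 4703 in M6. Of the 6 animals, 5 had more LTF on day 90, all but M3, by 1.70-fold (M4) to 6.11-fold (M5), and the days overlapped. M1, M2 and M5 had not been biopsied before either milking, and their LTF folds were 2.06, 3.41 and 6.11. The day 90 milk of M3, M4 and M6 came after a biopsy, with folds of 0.968, 1.70 and 2.72. A link between the folds and the biopsy was not tested.

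After scaling, the log2 fold change of LTF in milk cells from day 30 to day 90 was 1.32 (SE 0.42, 95% confidence interval 0.42 to 2.22, limma p = 0.00740, adjusted p = 0.0724), with day 90 the higher in 6 of 6 animals, M3 included by a fold of 1.09. With the animal as a replicate block LTF was higher on day 90 (limma adjusted p = 0.0225). That fit called 25.0% of transcripts. Without M3 the change was 1.56 (limma adjusted p = 0.0375), in a fit that called 2897 of 14098 transcripts. No other animal left out gave a call of LTF, with limma adjusted p up to 0.237. The unpaired fit of all animals called 5.10% of 13815 transcripts. LYZ in milk cells differed by -0.11 on the log2 scale (SE 0.44, interval -1.05 to 0.84, limma adjusted p = 0.895). In milk fat the 4 animals with both days went from 3795 to 4918 FPKM of LTF in M1, from 2173 to 2975 in M2, from 2334 to 3733 in M3 and from 2824 to 3608 in M6. All 4 were larger on day 90, with a log2 fold change over the 4 and 6 samples of 0.84 (SE 0.29, interval 0.20 to 1.47, limma p = 0.0143, adjusted p = 0.915). No transcript was called there (0% of 12609 by limma, with 661 at an unadjusted p under 0.05). The 6 day 90 samples included M4 and M5, which had no day 30 milk fat. With the animal as a replicate block, the log2 difference of LTF within the 4 animals with both days was 0.64. Over all alternatives the smallest limma adjusted p of LTF was 0.258. LYZ in milk fat differed by 0.20 over the same 4 and 6 samples (SE 0.34, interval -0.54 to 0.95, limma adjusted p = 0.982). Within the 4 animals with both days, LYZ was also larger on day 90 in 4 of 4, by 1.03-fold (M6) to 1.60-fold (M3) in FPKM, and with the animal as a replicate block the log2 difference was 0.52 (SE 0.22, limma adjusted p = 0.405).

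The ratio in milk cells was smaller on day 90 in 6 of 6 animals. It went from 12.7 to 7.06 in M1, from 21.5 to 7.72 in M2, from 29.7 to 23.7 in M3, from 6.21 to 3.23 in M4, from 15.1 to 1.96 in M5 and from 28.1 to 6.88 in M6. The geometric mean went from 16.7 to 6.18, a log2 difference of -1.43 ± 0.94 (SD over 6 animals, p = 0.03125 by the same exact test, the smallest possible, adjusted p = 0.0938). As in the other paired tests of the ratio, no adjusted p under 0.05 was possible. The day 90 ratio was between 1.26 times (M3) and 7.74 times (M5) smaller than that of day 30. In milk fat the ratio was also smaller on day 90 in 4 of 4 animals, by 1.001 times (M3) to 1.24 times (M6). It went from 10.2 to 9.69 in M1, from 11.8 to 11.1 in M2 and from 12.99 to 10.5 in M6. In M3 it was 13.6 on both days after rounding. The log2 difference was -0.12 ± 0.13 (SD over 4 animals, exact p = 0.125, the smallest that 4 animals allow, adjusted p = 0.141).

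In the 4 animals with both fractions on both days, the day change of the log2 ratio was -1.17 in milk cells and -0.12 in milk fat. The change was more negative in milk cells in 4 of 4 animals, by -1.05 ± 0.62 (SD, exact sign-flip p = 0.125, the smallest possible), a comparison added after the values were seen. Tested by limma on the same 4 animals, the day change in milk cells minus that in milk fat was 0.46 for LTF (SE 0.30, adjusted p = 0.354, larger in milk cells in 3 of 4 animals) and -0.60 for LYZ (SE 0.16, p = 0.00912, adjusted p = 0.152, smaller in milk cells in 4 of 4). Of the 13521 transcripts in that test 0 were called. The fractions were therefore not shown to differ in their change with lactation day.

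Biopsies of the different days came from different animals. LTF was 6689, 10172 and 8128 FPKM on day 30 (M3, M4 and M6) and 5719, 5747 and 12357 FPKM on day 90 (M1, M2 and M5). The days overlapped, with a log2 fold change of 0.12 for LTF (SE 0.29, interval -0.60 to 0.83, limma adjusted p = 0.965) and of 0.33 for LYZ (SE 0.41, interval -0.65 to 1.31, adjusted p = 0.960). The direction for LTF turned in FPKM as deposited (-0.15). No transcript was called (0% of 13762 by limma, 441 at an unadjusted p under 0.05). The geometric mean ratio was 2.05 on day 30 and 2.39 on day 90 (exact permutation test p = 0.8, where 3 against 3 cannot go under 0.1).

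Between milk fat and milk cells, the mean difference in the ratio had opposite directions on the 2 days, over 4 and 6 animals. The exact test gave a p under 0.05 on neither day. Averaged over days, LTF differed by a log2 fold change of 0.15 (SE 0.33, interval -0.56 to 0.87, limma adjusted p = 0.724) and LYZ by -0.19 (SE 0.36, interval -0.97 to 0.59, adjusted p = 0.693), where 43.7% of 13521 transcripts were called. The log2 ratio differed by -0.34 ± 0.44 (SD over 6 animals, smaller in milk fat in 4 of 6, exact sign-flip p = 0.125, adjusted p = 0.141). These averages set the day 90 milk fat of M4 and M5, which had no day 30 milk fat, against their milk cells of both days. M5 was among the 4 with the smaller ratio in milk fat (-0.80), although on day 90 its milk fat had the larger ratio. With the days apart, a split chosen after the values were seen, milk cells on day 30 had 1.25 times (M1), 1.81 times (M2), 2.19 times (M3) and 2.16 times (M6) the ratio of milk fat (log2 difference of milk fat from milk cells -0.86 ± 0.38, SD, n = 4, exact p = 0.125, the smallest possible). On day 90 it was milk fat that had the larger ratio in 5 of 6 animals, 1.37 times in M1, 1.44 in M2, 1.45 in M4, 1.59 in M5 and 1.53 in M6, while M3 kept the day 30 direction with 0.574 times (0.33 ± 0.56, SD, n = 6, exact p = 0.219).

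**Figure D4:**
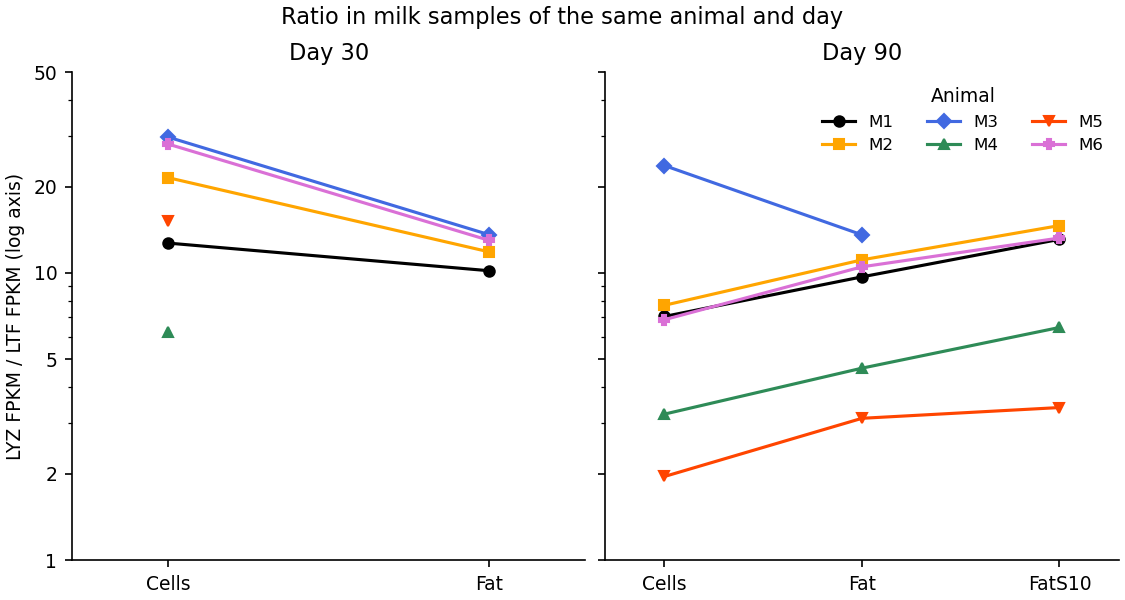
Ratio of LYZ to LTF FPKM on a log axis in milk samples of the same animal, joined by lines, on day 30 (left) and day 90 (right). Lines run down from milk cells to milk fat in the 4 animals with both on day 30, and run up from milk cells through milk fat to FatS10 on day 90 in M1, M2, M4, M5 and M6, with M3 running down.

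In the 5 animals that had it, FatS10 exceeded day 90 milk cells in the ratio by similar folds. Its ratio was 1.86 times that of the day 90 milk cells of the same animal in M1, 1.90 in M2, 2.003 in M4, 1.74 in M5 and 1.92 in M6. The 5 folds lay close together although the milk cell ratios themselves ran from 1.96 to 7.72 in these animals. The log2 difference was 0.91 ± 0.076 (SD over 5 animals, larger in FatS10 in 5 of 5, exact sign-flip p = 0.0625, the smallest possible, adjusted p = 0.0938). The day 90 folds of milk fat over milk cells in the same 5 animals also lay close together, from 1.37 (M1) to 1.59 (M5). Against day 90 milk fat the FatS10 ratio was larger in 5 of 5 animals by folds of 1.09 (M5) to 1.39 (M4), a log2 difference of 0.35 ± 0.14 (SD, n = 5, exact p = 0.0625, adjusted p = 0.0938). The Skim10m sample of M3, with 3935 FPKM of LTF and 56722 FPKM of LYZ, had a ratio of 14.4, which was 1.06 times that of the day 90 milk fat of M3 and 0.609 times that of its day 90 milk cells. With Skim10m counted among FatS10, the mean log2 difference from milk cells over 6 animals was 0.64, with M3 opposite to the other 5.

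Both transcripts entered the contrast of FatS10 with milk cells. LTF in FatS10 was between 0.561 and 0.691 times its FPKM in the day 90 milk cells of the same animal, lower in 5 of 5, and LYZ between 1.08 and 1.32 times, larger in 5 of 5. Without pairing, LTF differed by a log2 fold change of -0.50 (SE 0.41, limma adjusted p = 0.560), and 0.728% of 13456 transcripts were called. With the animal as a replicate block, LTF was lower in FatS10 by -0.62 (SE 0.11, limma adjusted p = 0.0147), a fit in which 26.0% of transcripts were called. Without pairing, LYZ differed by 0.03 (SE 0.37, interval -0.78 to 0.83, limma adjusted p = 0.981). Within animals, scaled LYZ was larger in FatS10 in 5 of 5, by 1.10-fold to 1.57-fold. LYZ was called in no alternative, the smallest limma adjusted p being 0.117. Against day 90 milk fat, also without pairing, LTF differed by -0.21 (SE 0.33, interval -0.93 to 0.52, limma adjusted p = 0.677) and LYZ by -0.02 (SE 0.31, interval -0.69 to 0.66, adjusted p = 0.976), where 24.4% of 12759 transcripts were called. The unpaired fits include M3 in milk fat and milk cells but not in FatS10.

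Animals kept much of their order between milk fractions. M3 had the largest ratio in milk cells on both days, in milk fat on both days, and M4 and M5 had the smallest ratios in all day 90 milk. M4 and M5 entered the following relations with day 90 milk fat alone but with milk cells of both days. Over the 6 animals, with days averaged after scaling on the log2 scale, LTF in milk cells and milk fat had a Pearson r of 0.862 (exact permutation p = 0.00833) and a Spearman rho of 0.943 (exact p = 0.0167). LYZ gave r = 0.933 (exact p = 0.0139) and the ratio r = 0.885 (exact p = 0.0194), each with a rho of 0.943 (exact p = 0.0167). Adjusted over 9 such relations these were 0.0583 for each r and 0.05 for each rho, so none was under 0.05. Without the 2 animals farthest from the median, r was 0.632 for LTF, 0.999 for LYZ and 0.959 for the ratio. Pairs sharing a leading title number, M3 with M4 and M5 with M6, held a large and a small ratio each, while M1 and M2 were alike.

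Between biopsies and milk the order was less close. For LTF, biopsies and milk fat had r = 0.869 (exact permutation p = 0.0417, adjusted p = 0.0938, rho = 0.771 with exact p = 0.103), and r was 0.667 without M5 and M6. For LTF in biopsies and milk cells r was 0.593 (exact permutation p = 0.117, rho = 0.657 with p = 0.175, and r = 0.626 without M5 and M6). For LYZ, r was 0.109 with milk cells (exact permutation p = 0.903, rho = 0.257 with p = 0.658) and 0.374 with milk fat (p = 0.469, rho = 0.371 with p = 0.497). In FPKM as deposited the biopsy of M3 had the least LYZ of the 6, whereas after scaling that of M4 had less. The milk cells of M3 had the most LYZ on both scales. For the ratio, r was 0.432 with milk cells (exact permutation p = 0.394, rho = 0.371 with p = 0.497) and 0.595 with milk fat (p = 0.25, rho = 0.257 with p = 0.658). Without the 2 animals farthest from the median, M4 and M6, r was -0.76 for LYZ with milk cells, -0.61 for LYZ with milk fat, -0.09 for the ratio with milk cells and 0.413 for the ratio with milk fat.

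LTF and LYZ did not follow each other over the 34 samples, with a Pearson r of -0.21 between their log2 scaled levels. Of 4034 transcripts with a mean of at least 10 FPKM, the most like LTF was ENSMMUT00000000137 (chromosome 1, 134898586 to 134901564 of rheMac2, r = 0.906, mean 29.7 FPKM), followed by transcripts on chromosome 16 (42467928 to 42510567, r = 0.892) and chromosome 7 (87084272 to 87090260, r = 0.890). The most like LYZ was ENSMMUT00000030637 (chromosome 9, 56967830 to 56979281, r = 0.902, mean 47.5 FPKM), followed by transcripts on chromosome 11 (102593398 to 102600592, r = 0.837) and chromosome 3 (82518949 to 82611280, r = 0.800). LALBA came in place 23 for LYZ (r = 0.727) and in place 1860 for LTF (r = -0.15). These r describe samples that share animals and runs and carry no test.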

How the data were processed

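The authors prepared poly(A) libraries (TruSeq), trimmed the single reads of 100 bases, aligned these to rheMac2 (TopHat, Bowtie) and estimated FPKM per Ensembl transcript (release 67) with Cufflinks, and these FPKM are the deposited values. Cufflinks divides reads by estimate between similar transcripts. Of the columns, 102 match samples of the series and 6 do not and were not used. Identical columns were searched for (0 pairs), and by correlation 100 of 102 runs lay nearest a run of the same sample and 2 nearest a run of a different sample.

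Runs were averaged as FPKM. Levels and ratios used FPKM as deposited. Tests across transcripts used median-of-ratios scaling over the 21792 transcripts above 0 in all samples, log2(scaled FPKM + 1) and a filter of mean FPKM of at least 1, fitted with limma 3.58.1 (trend) in R 4.3.3, two-sided with Benjamini-Hochberg adjustment. Fold changes are on the log2(value + pseudocount) scale. Ratios and correlations used exact permutation tests over animals (Python 3.11.15, numpy 2.4.6, pandas 2.3.3, scipy 1.17.1; figures with matplotlib 3.10.9). Samples of 1 animal were paired by the animal named in the labels. On simulated data with 200 transcripts changed by 1.5 (log2), limma recovered 88% for milk fat against biopsies and 44.5% for biopsies by day.

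The members and lists were chosen with earlier results of these data known. The genes named are LTF, LYZ, LALBA and the 3 transcripts most correlated with each of LTF and LYZ over all samples. Alternatives covered the scaling, pseudocount, filter, pairing, averaging of days, biopsy-day milk, Skim10m and each animal left out. Lists of other antimicrobial genes and cell type markers, the check of sample types by markers, and sequences were not analysed here, since transcript identifiers were not paired with gene names in the tables used. Read counts were not used here.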

Additional observations from a re-analysis of the deposited data

Results flagged for a closer look

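The LTF level of M5 stood far from the others in FatS10 (8851 FPKM, against 2849 to 3949 FPKM in the other 4 animals) and, over the 10 milk fat samples, on day 90 (7989 FPKM, against a next highest of 4918 FPKM). The biopsy and day 90 milk cells of M5 also had the highest LTF of their groups, whereas its day 30 milk cells, with 2177 FPKM, did not. The LYZ to LTF ratio of M3 stood far from the others in day 90 milk cells (23.7, against 1.96 to 7.72). These were 3 of 21 groups checked for a sample whose gap to its neighbour is large against the range of the group, and chance alone marks about 1 in 20 groups. No cause was tested.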

How the results depend on the processing

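The directions of LTF against biopsies were kept in all alternatives, with log2 fold changes of -1.37 to -1.04 in milk fat, -1.51 to -1.11 in milk cells and -1.43 to -0.92 in FatS10. In FatS10 LTF lost its call without the filter (-1.24) and with biopsy-day milk only, which left 3 FatS10 samples against 6 biopsies (-1.05). LYZ gained a call in milk fat in FPKM as deposited (0.82), with every sample as its own value (0.70, adjusted p = 0.0316) and with biopsy-day milk only (0.77, adjusted p = 0.0337), and in milk cells in FPKM as deposited (1.07). LYZ in FatS10 lost its call with scaling to the 75th percentile (0.68), a pseudocount of 0.1 (0.77), no filter (0.77, adjusted p = 0.742) and biopsy-day milk (0.92, adjusted p = 0.0542), and ranged from 0.67 to 0.85 with an animal left out. The replicate block brought calls of LTF for FatS10 against milk cells (-0.62) and for the days of milk cells (1.32), and changed no other call of LTF or LYZ. Leaving out an animal gave 1.001 to 1.56 for LTF in milk cells by day, -0.080 to 0.15 for LYZ in FatS10 against milk fat, -0.10 to 0.29 for LYZ in FatS10 against milk cells, and -0.15 to 0.28 for LTF and -0.022 to 0.76 for LYZ in biopsies by day. Directions turned for LYZ in FatS10 against milk fat in FPKM as deposited (0.15), with the replicate block (0.15) and with Skim10m added (0.13), for LYZ in FatS10 against milk cells with scaling to the 75th percentile (-0.069), for LTF in biopsies by day as deposited (-0.15), and for milk fat against milk cells on day 90 alone (LTF -0.29, LYZ 0.040, log2 ratio 0.33). The unpaired exact test (no replicate block) gave ratio differences from biopsies of 1.86, 2.20 and 2.01, under 0.05 after adjustment, and biopsies by day gave -0.18 to 0.76 with an animal left out. The correlation of LYZ between biopsies and milk cells turned in FPKM as deposited (-0.085) and without the 2 farthest animals (-0.76), as did LYZ with milk fat (-0.61) and the ratio with milk cells (-0.091), and leaving out 1 animal gave -0.42 to 0.64 and -0.18 to 0.73 for LYZ. The cause of these changes was not tested. Of 390 recomputed values, 346 stayed on the same side with the same direction.

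Counts of called transcripts ran, over the alternatives, from 6345 to 11465 in milk fat against biopsies (7372 in the fit reported), 4539 to 8982 in milk cells against biopsies (6095), 2847 to 7604 in milk fat against milk cells (5906), 4417 to 9066 in FatS10 against biopsies (5980), 706 to 5137 in FatS10 against milk fat (3108), 7 to 3493 in FatS10 against milk cells (98), 0 to 3454 in milk cells by day (705), 0 to 2 in milk fat by day (0) and 0 to 11 in biopsies by day (0). Summing a locus changed nothing, since no other transcript overlaps LTF or LYZ. With 4 or 5 animals the exact tests of the ratio could not go under 0.05. With 6 animals they could, but after adjustment over the 9 comparisons no paired test of the ratio could.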
